A study of Rattus norvegicus with 12 samples.

Results

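RNA sequencing values of 85 cell cycle and DNA replication genes were compared between adult rat ventricular myocytes (ARVMs) that overexpressed the nuclear receptor NR4A2 and control ARVMs. The 85 genes were picked from 17301 gene names. Included were symbols of the A-, B-, D- and E-type cyclins, the cyclin-dependent kinases (CDKs) 1 to 9 and the CDK inhibitors. The retinoblastoma (pocket) proteins, the E2F factors, and the ORC and MCM subunits were also included. So were the CDC6, CDC7, CDC20, CDC25 and CDC45 genes, the Aurora, BUB and PLK genes, and the CENP symbols. The histone chaperones Asf1a, Asf1b and Chaf1b, and Pcna, Top2a and Mki67, completed the set. All 85 were taken by symbol alone. Ventricular myocytes of adult male Sprague Dawley rats were plated on laminin and kept in serum-free culture. Control cells received an adenovirus encoding enhanced green fluorescent protein (Ad-GFP), and the other cells an adenovirus with human NR4A2 cDNA behind the cytomegalovirus promoter (Ad-h-NR4A2), each at 50 MOI. RNA was collected 48 h later in 6 samples per group, numbered 24 to 29 in both groups, and the submitters describe 6 independent experiments with cells of different rats. The cytomegalovirus promoter is not restricted to myocytes, and the transgene is human whereas reads were aligned to the rat genome.

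Most ventricular myocytes of an adult mammal have left the cell cycle, and growth of the heart then takes place mainly by enlargement of existing cells. In cycling cells, D-type cyclins with CDK4 or CDK6 phosphorylate the retinoblastoma protein and its relatives, which frees E2F factors to transcribe genes for DNA replication, while CDK inhibitors such as p21 (Cdkn1a), p27 (Cdkn1b) and p57 (Cdkn1c) oppose these kinases. The origin recognition complex (ORC) and CDC6 then load the MCM2-7 helicase on DNA, and cyclin B with CDK1, the Aurora and Polo-like kinases, the spindle checkpoint and the centromere proteins act in mitosis. Several of these proteins also have roles outside the cell cycle.

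Values are FPKM, fragments scaled to the length of the transcript and to all mapped fragments of the sample, which can be compared between genes because they are per length. The depth, recovered from low values, was 18600000 to 27800000 fragments per sample. In the check of the labels, Nr4a2 measured 0.626 to 1.40 FPKM in the Ad-GFP samples and 445 to 592 FPKM in the Ad-h-NR4A2 samples. A gene is called differentially expressed here where limma's Benjamini-Hochberg adjusted p over all 10950 genes tested was below 0.05 and the mean FPKM of the groups differed at least 1.5-fold. Log2 fold changes are of FPKM + 0.1, Ad-h-NR4A2 over Ad-GFP, with limma's standard error (SE), and a pair is an Ad-GFP and an Ad-h-NR4A2 sample of the same number. Values with ± are means and SDs over the 6 samples of a group. In RNA of whole cultures, fewer cells of a type and less RNA per cell cannot be told apart.

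Of the 85 genes, 78 were above 0 FPKM in all 12 samples and were tested. Differential expression was found for 9 of the 78 members (11.5%), compared with 15.2% of all genes tested. Cdk6, Cdkn1c, Cenpf, Mcm2 and Plk2 were higher in Ad-h-NR4A2 samples (7.94% of all genes were called higher), and Asf1b, Ccnd2, Cdkn1a and Cenpj were lower (7.24% of all genes). Each of the 9 differed in the same direction in 6 of 6 pairs, and for 5 of them (Ccnd2, Cdk6, Mcm2, Plk2 and Cenpj) the groups did not overlap. The two-sided exact permutation test gave p = 0.00216 for each of these 5, the smallest value that the 924 splits of 12 samples allow, and p = 0.00433 to 0.0130 for the other 4. The groups did not overlap for 12 members in all (15.4%), compared with 21.5% of all genes. With no limit on the fold, the adjusted p was below 0.05 for 25 members (15 higher and 10 lower, 32.1%) and for 40.9% of all genes, and with the sample number as a block for 34 members (43.6%) and 59.4% of all genes. The median log2 fold change was 0.01 over the members tested and -0.02 over all genes tested. The share of members called was thus no larger than the background, and in 3 functional groups (G1 cyclins and CDKs, CDK inhibitors, and centromere symbols) members were called in both directions. Among the 25 members with an adjusted p below 0.05, nearest to the fold limit were Cdkn1a (ratio of means 0.637) and Cenpj (0.629) inside it, and Mcm8 (1.49) and Bub1 (0.682) outside it.

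**Figure D1:**
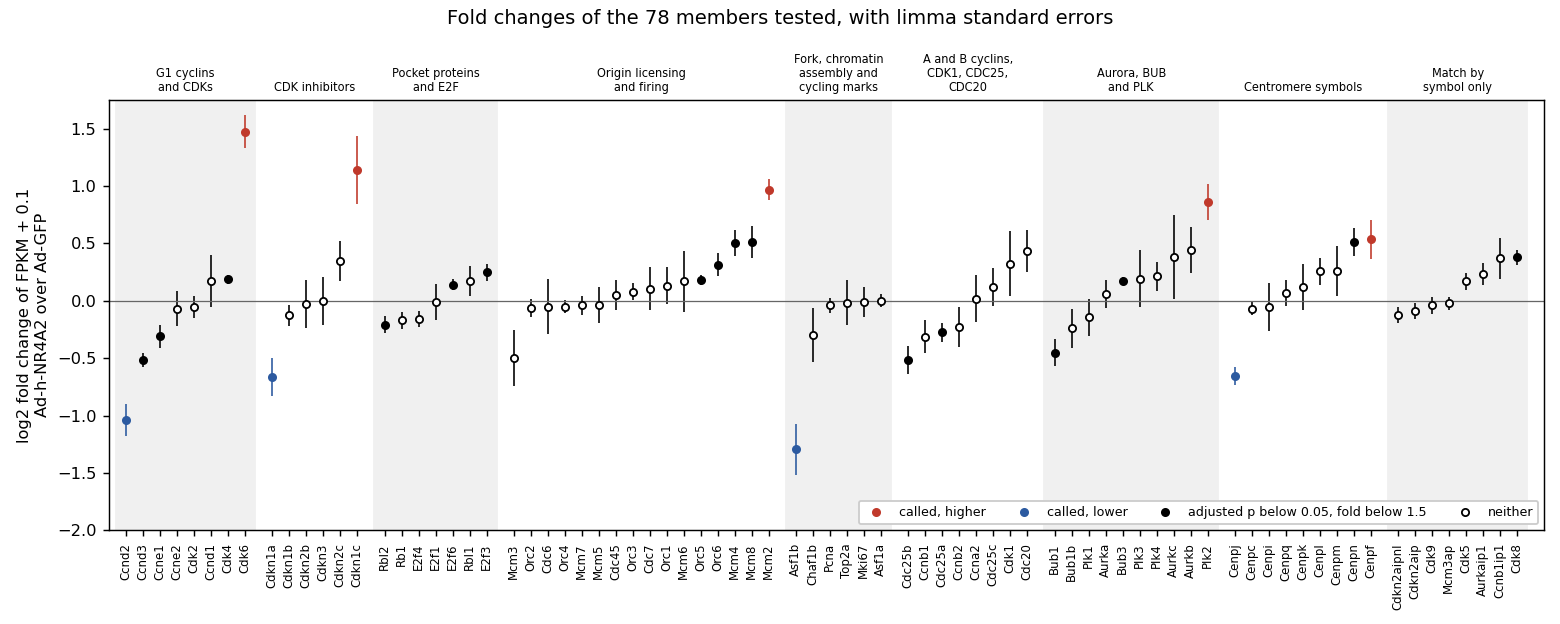
Log2 fold changes of FPKM + 0.1 (vertical axis, Ad-h-NR4A2 over Ad-GFP) of the 78 members tested, grouped by role, with limma SEs as bars; filled black points have an adjusted p below 0.05 but a fold below 1.5. The 5 members called higher and the 4 called lower are spread over 6 of the 9 groups, and Cdk6 (1.47) and Asf1b (-1.29) mark the ends of the range.

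In control myocytes, the members covered a wide range of levels. The mean in Ad-GFP samples was at least 10 FPKM for 23 members, between 1 and 10 FPKM for 23, and below 1 FPKM for 39, and 35 members had means below 1 FPKM in both groups. The CDK inhibitor Cdkn1a ranked first (231 ± 49.0 FPKM, SD, n = 6), followed by the D-type cyclin Ccnd2 (218 ± 38.5 FPKM) and the transcriptional repressor E2f6 (92.1 ± 4.77 FPKM). At the other end were genes that are transcribed mainly in S, G2 and M phases. Mki67, the source of the Ki-67 antigen of cycling cells, averaged 0.0729 ± 0.0227 FPKM in Ad-GFP samples (9 to 22 fragments per sample) and 0.0713 ± 0.0163 FPKM in Ad-h-NR4A2 samples (9 to 22 fragments). Top2a, the topoisomerase that untangles sister chromatids, averaged 0.0863 ± 0.0559 and 0.0799 ± 0.0288 FPKM, respectively. Pcna, the sliding clamp of DNA polymerases that also serves in DNA repair, stood far above them at 83.7 ± 8.29 FPKM in Ad-GFP samples and 81.2 ± 5.17 FPKM in Ad-h-NR4A2 samples. Low members therefore rest on few fragments, and a small difference in them was not detectable at this depth.

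**Figure D2:**
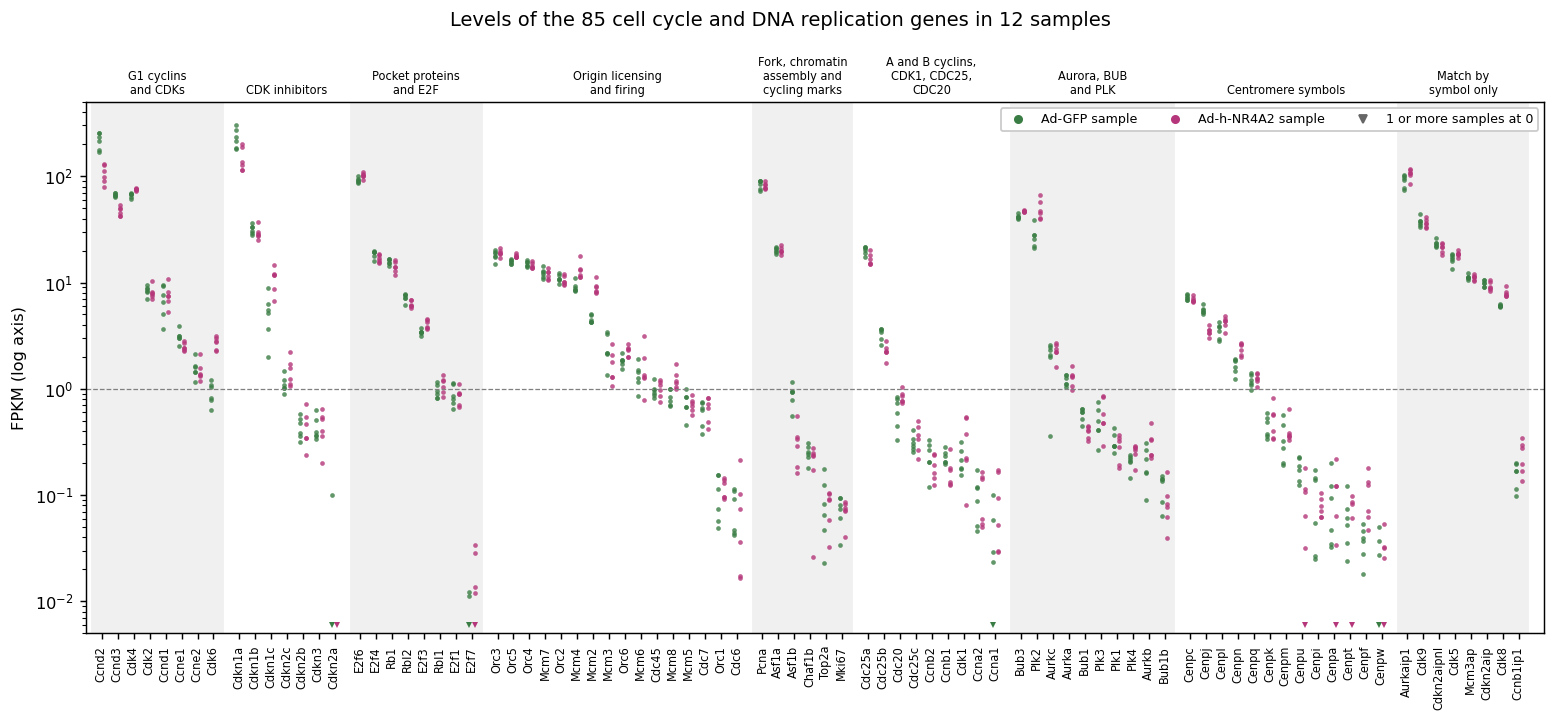
FPKM of the 85 members (log axis) in each Ad-GFP and Ad-h-NR4A2 sample, ordered within each role by the Ad-GFP mean; triangles at the bottom mark genes listed at 0 in at least 1 sample of that group, and the dashed line is at 1 FPKM. D-type cyclins, Cdk4, Cdkn1a, E2f6 and Pcna lie well above 1 FPKM, whereas 35 members have means below 1 FPKM in both groups.

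Of the 8 G1 cyclins and CDKs, Ccnd2 fell and Cdk6 rose. Ccnd2 (cyclin D2), which binds CDK4 and CDK6 early in G1, is transcribed from chr4:231905449-231927999 of Rn5. Its lowest, median and highest values were 170, 223 and 257 FPKM in Ad-GFP samples and 78.8, 105 and 131 FPKM in Ad-h-NR4A2 samples. Every Ad-h-NR4A2 sample thus lay below every Ad-GFP sample. Ccnd2 fell in each pair to between 0.434 and 0.541 of the control value (log2 fold change -1.04, SE 0.14, adjusted p = 5.29e-05). Cyclin D3 (Ccnd3) had 63.6, 66.7 and 69.9 FPKM in Ad-GFP samples and 41.8, 47.0 and 53.6 FPKM in Ad-h-NR4A2 samples. These ranges did not overlap either (log2 fold change -0.52, SE 0.06, adjusted p = 1.87e-05), but the ratio of 0.702 stayed short of the fold limit. Cyclin D1 (Ccnd1) ranged from 3.67 to 9.47 FPKM and from 5.23 to 10.8 FPKM, respectively, and did not pass the test (log2 fold change 0.17, SE 0.23, adjusted p = 0.577). As a description computed after these values were seen, Ccnd2 made up 74.3 ± 4.06% of the FPKM of the 3 D-type cyclins in Ad-GFP samples and 65.7 ± 3.39% in Ad-h-NR4A2 samples.

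Cdk6, one of the catalytic partners of the D-type cyclins, had the largest ratio among the 78 members tested (chr4:27688955-27869534 of Rn5). Ad-GFP samples had 0.637, 0.926 and 1.20 FPKM as lowest, median and highest values, and Ad-h-NR4A2 samples had 2.28, 2.80 and 3.11 FPKM. The groups were well apart, and Cdk6 rose 2.31- to 4.88-fold within pairs (log2 fold change 1.47, SE 0.15, adjusted p = 3.42e-06), counted from 183 fragments in all Ad-GFP samples and 526 in all Ad-h-NR4A2 samples. Cdk4, the other partner, was far more abundant at 66.3 ± 3.59 and 75.3 ± 1.46 FPKM, and its ratio was only 1.14 although the groups did not overlap (log2 fold change 0.19, SE 0.04, adjusted p = 0.00213). At the RNA level, Cdk6 therefore remained the less abundant of the 2 kinases. It made up 1.38 ± 0.332% of the combined Cdk4 and Cdk6 FPKM in Ad-GFP samples and 3.48 ± 0.431% in Ad-h-NR4A2 samples. This share is a description computed after the values were seen. Of the kinase and cyclins that act later in G1, Cdk2 averaged 8.42 ± 0.856 and 8.12 ± 1.17 FPKM (log2 fold change -0.06, SE 0.10, adjusted p = 0.679). Cyclin E1 (Ccne1) averaged 3.13 ± 0.448 and 2.49 ± 0.215 FPKM and was below the fold limit (log2 fold change -0.31, SE 0.10, adjusted p = 0.0263).

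**Figure D3:**
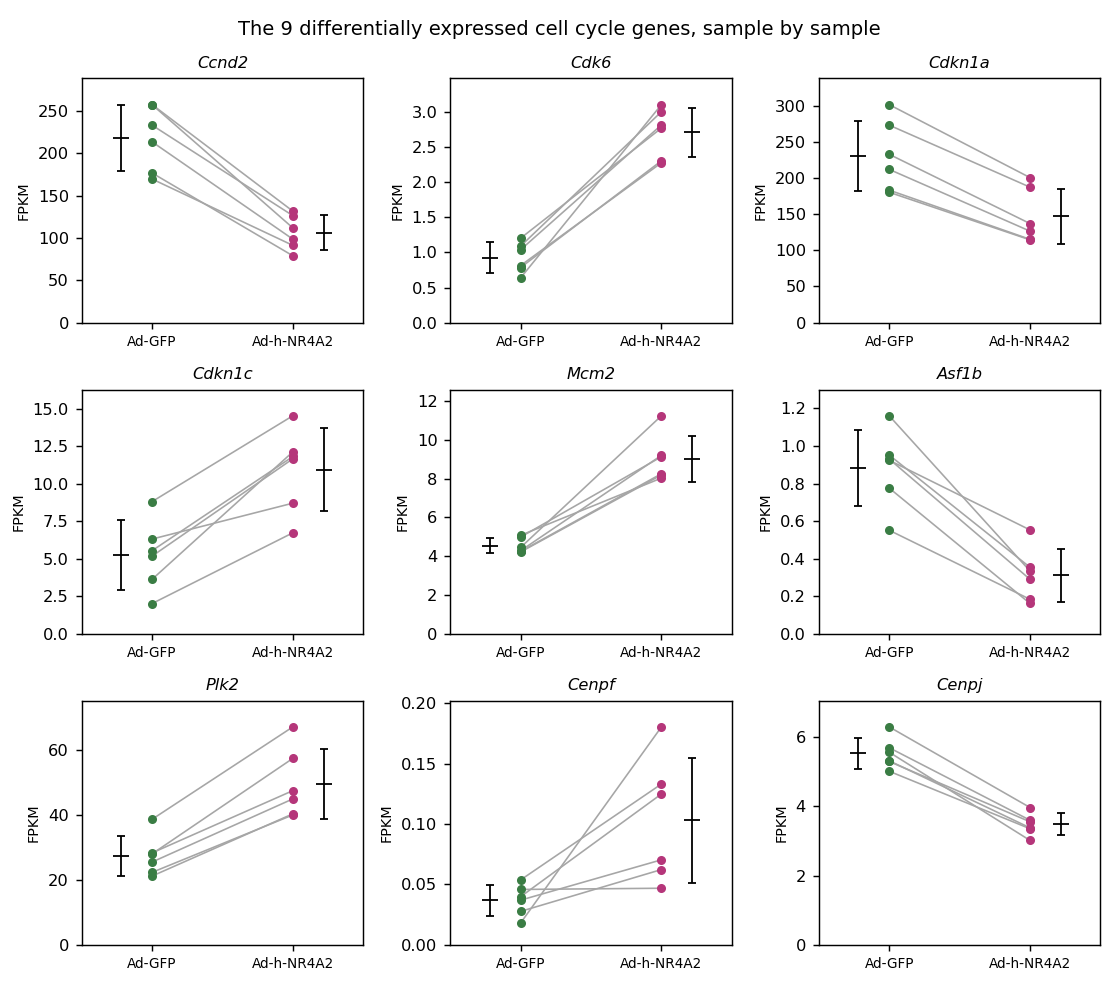
FPKM (vertical axes, from 0) of the 9 differentially expressed members; each point is a sample, grey lines join samples of the same number, and black marks are the mean ± SD of 6 samples. Lines slope upward for Cdk6, Cdkn1c, Mcm2, Plk2 and Cenpf and downward for Ccnd2, Cdkn1a, Asf1b and Cenpj in every pair, and for Cdkn1a, Cdkn1c, Asf1b and Cenpf the 2 groups overlap.

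Among CDK inhibitors, 2 of the 6 tested were differentially expressed, in opposite directions. Cdkn1a (p21), a target of p53 that blocks G1 and S phase CDKs, lies at chr20:8592437-8602879 of Rn5. It had 181, 223 and 302 FPKM as lowest, median and highest values in Ad-GFP samples and 115, 132 and 201 FPKM in Ad-h-NR4A2 samples. The groups overlapped, whereas the within-pair ratios were confined to 0.588 to 0.686 (log2 fold change -0.66, SE 0.17, adjusted p = 0.00610). Without Ad-GFP sample 28, the log2 fold change was -0.58 and Cdkn1a was no longer differentially expressed. Cdkn1c (p57), an imprinted gene in mammals whose product restrains G1 CDKs, has 3 transcripts in the tables, and the one with the highest mean over all 12 samples spans chr1:223521098-223523972. That transcript had 2.01, 5.35 and 8.81 FPKM in Ad-GFP samples and 6.73, 11.7 and 14.5 FPKM in Ad-h-NR4A2 samples. Cdkn1c rose in 6 of 6 pairs, by 1.38- to 3.35-fold (log2 fold change 1.14, SE 0.29, adjusted p = 0.00714). Another transcript was the highest in Ad-h-NR4A2 samples, with 3.72 ± 1.46 FPKM in Ad-GFP samples and 11.5 ± 3.16 FPKM in Ad-h-NR4A2 samples. Because the division of reads among transcripts of a gene is an estimate, the 3 were also summed, which gave 12.5 ± 4.99 and 28.6 ± 6.56 FPKM (log2 fold change 1.25, SE 0.24, adjusted p = 9.09e-04). Even so, Cdkn1a stayed the more abundant inhibitor in every sample.

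The remaining inhibitors did not pass the unpaired test. By limma with the sample number as a block, the adjusted p was 0.0226 for Cdkn1b and 0.0191 for Cdkn2c, with ratios below the fold limit. Cdkn1b (p27) averaged 31.9 ± 3.05 and 29.3 ± 4.23 FPKM (log2 fold change -0.13, SE 0.09, adjusted p = 0.281). Cdkn2c (p18), an inhibitor of CDK4 and CDK6, averaged 1.11 ± 0.200 and 1.48 ± 0.444 FPKM (log2 fold change 0.35, SE 0.17, adjusted p = 0.128) and was higher in 6 of 6 pairs. Cdkn2a, which encodes p16 and ARF, was listed at 0 in 11 of 12 samples and at 0.0999 FPKM in Ad-GFP sample 25, and was not tested.

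By limma, 0 of the 7 pocket protein and E2F genes tested were differentially expressed. An unadjusted p below 0.05 was found for 5, and an adjusted p below 0.05 for 3 (E2f3, E2f6 and Rbl2). These 3 are 42.9% of the genes tested in this group, compared with 40.9% of all genes tested. Rb1, the retinoblastoma gene, had 14.4, 15.8 and 16.5 FPKM in Ad-GFP samples and 11.9, 13.9 and 16.2 FPKM in Ad-h-NR4A2 samples (log2 fold change -0.17, SE 0.07, adjusted p = 0.0886). With the sample number as a block, the adjusted p of Rb1 by limma was 0.00869. Rbl2 (p130), the pocket protein that prevails in resting cells, averaged 7.26 ± 0.574 and 6.27 ± 0.470 FPKM (log2 fold change -0.21, SE 0.07, adjusted p = 0.0360). Rbl1 (p107), itself an E2F target, averaged 0.953 ± 0.140 and 1.09 ± 0.186 FPKM (log2 fold change 0.17, SE 0.13, adjusted p = 0.311). Differences among these 3 were all below the fold limit. E2f1, an activator of replication genes, averaged 0.878 ± 0.202 FPKM in Ad-GFP samples and 0.864 ± 0.159 FPKM in Ad-h-NR4A2 samples (log2 fold change -0.01, SE 0.15, adjusted p = 0.957). The E2F factors known mainly as repressors, E2f4 and E2f6, were more abundant than E2f1 in every sample, with Ad-GFP means of 18.7 ± 1.56 and 92.1 ± 4.77 FPKM. E2f3 (ratio 1.19, adjusted p = 0.0220 by limma) and E2f6 (1.10, adjusted p = 0.0299) were higher in 6 of 6 pairs and below the fold limit. E2f3, E2f4, E2f6 and other members described from here on that are neither differentially expressed nor covered by the rule for named genes were picked after their values were seen.

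Of 16 genes for origin licensing and firing, Mcm2 alone was differentially expressed. Mcm2, a subunit of the MCM2-7 helicase that also binds histones, lies at chr4:186066380-186080792 of Rn5. Its lowest, median and highest values were 4.21, 4.36 and 5.07 FPKM in Ad-GFP samples and 8.02, 8.69 and 11.2 FPKM in Ad-h-NR4A2 samples. Hence each Ad-h-NR4A2 sample exceeded each Ad-GFP sample, and Mcm2 rose 1.58- to 2.53-fold within pairs (log2 fold change 0.97, SE 0.09, adjusted p = 2.04e-06). The protein works only as part of a hexamer with 1 copy of each subunit, but the genes of the other subunits had unequal levels, and none of them was differentially expressed. Mcm4 had 8.30, 8.76 and 11.0 FPKM in Ad-GFP samples and 11.2, 12.4 and 17.8 FPKM in Ad-h-NR4A2 samples, without overlap, and its ratio of 1.43 was just short of the limit (log2 fold change 0.50, SE 0.11, adjusted p = 0.00257). Mcm3 had 1.34, 2.17 and 3.43 FPKM and 1.05, 1.53 and 2.63 FPKM, respectively (log2 fold change -0.50, SE 0.24, adjusted p = 0.117). It was lower in 6 of 6 pairs, at 0.590 to 0.819 of control, and with the sample number as a block the adjusted p was 0.00127. Mcm3 was called lower without Ad-GFP sample 24 (log2 fold change -0.65) or Ad-h-NR4A2 sample 27 (-0.64). The other 3 subunits did not pass the test. Mcm7 averaged 12.3 ± 1.22 and 12.0 ± 1.23 FPKM (adjusted p = 0.728), Mcm6 1.35 ± 0.359 and 1.63 ± 0.816 FPKM (adjusted p = 0.645), and Mcm5 0.746 ± 0.183 and 0.712 ± 0.106 FPKM (adjusted p = 0.868). Mcm2 thereby accounted for 14.9 ± 1.36% of the FPKM of the 6 helicase genes in Ad-GFP samples and for 23.7 ± 1.51% in Ad-h-NR4A2 samples, given as a description chosen after the values were seen.

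**Figure D4:**
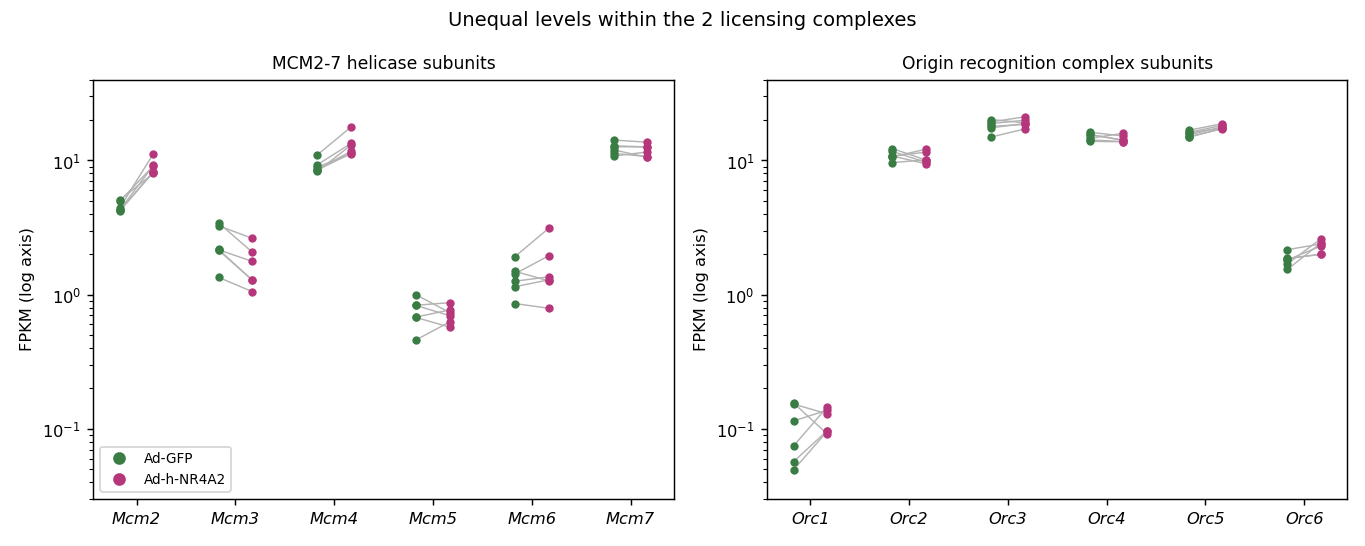
FPKM (log axis) of Mcm2 to Mcm7 on the left and of Orc1 to Orc6 on the right; points are samples and grey lines join those of the same number. In every pair, the Ad-h-NR4A2 sample has more Mcm2 and Mcm4 and less Mcm3, and Orc1, at about 0.1 FPKM, lies far below Orc2 to Orc5.

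Subunits of the origin recognition complex were even less alike in level. Orc1, which is transcribed late in G1 of cycling cells, averaged 0.101 ± 0.0473 and 0.116 ± 0.0240 FPKM (34 and 40 fragments per group; log2 fold change 0.13, SE 0.16, adjusted p = 0.551). In contrast, Orc2, Orc3, Orc4 and Orc5 had Ad-GFP means between 11.0 ± 0.912 (Orc2) and 18.1 ± 1.82 FPKM (Orc3), and Orc6 had 1.82 ± 0.206 FPKM. Orc5 was at 15.7 ± 0.744 and 17.8 ± 0.606 FPKM, higher in 6 of 6 pairs and without overlap (log2 fold change 0.18, SE 0.05, adjusted p = 0.00675), with a ratio of 1.13. Orc6 reached 2.29 ± 0.247 FPKM in Ad-h-NR4A2 samples and was higher in 6 of 6 pairs (log2 fold change 0.31, SE 0.10, adjusted p = 0.0231), with a ratio of 1.26. Orc2, Orc3 and Orc4 did not pass the test. ORC subunits other than ORC1 also have known roles outside the cell cycle. Cdc6, the loading factor that works with ORC, averaged 0.0745 ± 0.0337 and 0.0770 ± 0.0760 FPKM on 27 and 29 fragments per group (log2 fold change -0.05, SE 0.24, adjusted p = 0.887). Mcm8, a helicase paralogue used in recombination repair rather than licensing, averaged 0.833 ± 0.138 and 1.24 ± 0.261 FPKM and was higher in 6 of 6 pairs (log2 fold change 0.51, SE 0.14, adjusted p = 0.00991), with a ratio of 1.49. It was called higher without Ad-GFP sample 26 (0.56) or 29 (0.57) and without Ad-h-NR4A2 sample 25 (0.53), 27 (0.56) or 28 (0.57).

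Promoter sequence was available by symbol for 67 of the 85 members and for 6 of the 9 differentially expressed ones. Ccnd2, Cdk6 and Cdkn1c had none. The windows searched are the 250 bases before each RefSeq gene start of build GRCr8. The E2F-type letters TTTCGCGC, sought on both strands, were present in 6 of these 67 windows (Cdk1, Mcm2, Mcm5, Mcm6, Mcm7 and Rbl1; 8.96%) and in 0.248% of all 33469 windows. The variant TTTGGCGC was present in 4 members (Cdc25a, Mcm5, Mcm6 and Mcm8; 5.97%) and in 0.412% of all windows. The letters TTTGAA of the cell cycle homology region, in contrast, were in 13 members (19.4%), Mcm2 among them, and in 16.2% of all windows. The 250 bases before the start of the 4 MCM2-7 genes with an E2F-type match are shown to set Mcm2, which rose, beside Mcm5, Mcm6 and Mcm7, which did not pass the test; capitals mark matches to either E2F-type motif on either strand, and runs longer than 8 capitals are overlapping matches. The windows are chr4:122918095-122918344 (minus strand) for Mcm2, chr19:13488563-13488812 (plus strand) for Mcm5, chr13:42404353-42404602 (minus strand) for Mcm6 and chr12:22163179-22163428 (minus strand) for Mcm7.
Mcm2: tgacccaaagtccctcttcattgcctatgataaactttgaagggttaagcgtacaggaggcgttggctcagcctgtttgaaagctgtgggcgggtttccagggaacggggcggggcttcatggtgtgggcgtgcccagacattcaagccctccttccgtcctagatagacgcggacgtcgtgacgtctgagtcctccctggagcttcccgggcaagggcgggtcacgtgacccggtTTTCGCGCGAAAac
Mcm5: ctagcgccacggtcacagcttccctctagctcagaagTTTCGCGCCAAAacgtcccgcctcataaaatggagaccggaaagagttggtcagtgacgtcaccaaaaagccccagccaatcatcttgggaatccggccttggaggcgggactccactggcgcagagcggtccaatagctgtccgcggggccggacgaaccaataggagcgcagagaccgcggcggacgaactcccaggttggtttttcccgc
Mcm6: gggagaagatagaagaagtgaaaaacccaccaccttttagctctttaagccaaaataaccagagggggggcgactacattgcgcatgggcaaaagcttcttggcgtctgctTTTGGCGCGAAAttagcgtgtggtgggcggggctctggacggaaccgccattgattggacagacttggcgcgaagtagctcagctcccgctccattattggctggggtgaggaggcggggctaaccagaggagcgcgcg
Mcm7: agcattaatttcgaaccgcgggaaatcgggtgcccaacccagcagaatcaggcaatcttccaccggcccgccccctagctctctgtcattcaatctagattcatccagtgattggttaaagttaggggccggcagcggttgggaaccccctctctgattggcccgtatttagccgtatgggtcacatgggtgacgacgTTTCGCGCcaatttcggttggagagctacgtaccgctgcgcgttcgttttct
The first match begins 14 bases before the start in Mcm2, 213 in Mcm5, 139 in Mcm6 and 52 in Mcm7. All 4 promoters thus hold an E2F-type match, and of these genes Mcm2 alone was differentially expressed, which describes the letters and not the binding of a factor. The monomer site of the NR4A receptors, AAAGGTCA, was found in 0 of the 67 windows and in 1.24% of all windows. This says only that these letters are not within the 67 windows, and Ccnd2, Cdk6 and Cdkn1c could not be searched.

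Among replication fork and chromatin assembly genes, Asf1b was differentially expressed. ASF1 proteins hand newly made and recycled histones H3 and H4 to assembly factors, and ASF1B is the form found mostly in cycling cells. Asf1b (chr19:36055967-36070506 of Rn5) had 0.551, 0.928 and 1.16 FPKM as lowest, median and highest values in Ad-GFP samples and 0.161, 0.312 and 0.553 FPKM in Ad-h-NR4A2 samples. The highest Ad-h-NR4A2 sample barely reached the lowest Ad-GFP sample, and Asf1b fell to between 0.207 and 0.598 of control within pairs (log2 fold change -1.29, SE 0.22, adjusted p = 4.09e-04). These values rest on 176 fragments in the Ad-GFP samples and 64 in the Ad-h-NR4A2 samples. Its paralogue Asf1a was far more abundant and averaged 20.1 ± 1.13 and 20.1 ± 1.44 FPKM (log2 fold change 0.00, SE 0.06). Chaf1b, a subunit of the assembly factor CAF-1 that receives histones from ASF1, averaged 0.250 ± 0.0454 and 0.200 ± 0.0920 FPKM (log2 fold change -0.30, SE 0.24, adjusted p = 0.345). CCAAT boxes are common in promoters of cell cycle genes, and the 250 bases before the start of Asf1b (GRCr8 chr19:41100353-41100602, minus strand) are shown with their 5 matches to CCAAT or its reverse ATTGG in capitals.
Asf1b: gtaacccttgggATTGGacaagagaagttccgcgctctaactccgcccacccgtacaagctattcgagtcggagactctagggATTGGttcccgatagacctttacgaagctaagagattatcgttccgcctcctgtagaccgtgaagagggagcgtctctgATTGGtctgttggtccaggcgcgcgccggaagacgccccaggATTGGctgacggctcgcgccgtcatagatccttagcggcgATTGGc
CCAAT or ATTGG was present in 33 of the 67 member windows (49.3%) and in 34.0% of all windows. Of the 6 differentially expressed members with a window, Asf1b, Cenpf and Cenpj had it. The letters are therefore not particular to Asf1b, and members with them were called in both directions.

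Of the 8 genes tested among A- and B-type cyclins, Cdk1, CDC25 phosphatases and Cdc20, 0 were differentially expressed by limma. An unadjusted p below 0.05 was found for 4, and an adjusted p below 0.05 for 2 (25%, compared with 40.9% of all genes tested). Cyclin A2 (Ccna2), needed in S phase, averaged 0.0988 ± 0.0475 and 0.103 ± 0.0541 FPKM on 21 and 23 fragments per group (log2 fold change 0.02, SE 0.21, adjusted p = 0.951). Cyclin B1 (Ccnb1), the partner of CDK1 in mitosis, averaged 0.228 ± 0.0338 and 0.168 ± 0.0559 FPKM on 102 and 76 fragments (log2 fold change -0.31, SE 0.14, adjusted p = 0.0956). Without Ad-h-NR4A2 sample 25, Ccnb1 had a log2 fold change of -0.41 and was differentially expressed. Cdk1, the kinase of mitotic entry, had 0.154, 0.197 and 0.313 FPKM in Ad-GFP samples and 0.0805, 0.301 and 0.542 FPKM in Ad-h-NR4A2 samples (log2 fold change 0.32, SE 0.28, adjusted p = 0.387). Its spread among Ad-h-NR4A2 samples was wider than the difference between the groups. Of the phosphatases that activate CDKs, Cdc25a was the most abundant (20.1 ± 1.60 and 16.7 ± 2.14 FPKM; log2 fold change -0.28, SE 0.08, adjusted p = 0.0169) and was below the fold limit. Cdc25b averaged 3.29 ± 0.436 and 2.27 ± 0.348 FPKM, lower in 6 of 6 pairs, with a ratio of 0.691 (log2 fold change -0.52, SE 0.12, adjusted p = 0.00364), and was called lower without Ad-GFP sample 29 (-0.58) or Ad-h-NR4A2 sample 24 (-0.58). Cdc25c averaged 0.311 ± 0.0574 and 0.353 ± 0.105 FPKM (adjusted p = 0.597).

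Of the Aurora, BUB and PLK genes, Plk2 was differentially expressed. Unlike PLK1, PLK2 is a stress-inducible kinase with known functions in centriole duplication and in nondividing cells such as neurons. Plk2 (chr2:60970300-60976058 of Rn5) had 21.1, 26.7 and 38.6 FPKM in Ad-GFP samples and 40.0, 46.2 and 67.1 FPKM in Ad-h-NR4A2 samples. The ranges were close but did not overlap, and Plk2 rose 1.68- to 2.05-fold within pairs (log2 fold change 0.86, SE 0.15, adjusted p = 5.79e-04). Its promoter window holds the cAMP response element TGACGTCA, shown in capitals in the 250 bases before the start (GRCr8 chr2:43702286-43702535, plus strand), because this element is known from genes that respond to cAMP.
Plk2: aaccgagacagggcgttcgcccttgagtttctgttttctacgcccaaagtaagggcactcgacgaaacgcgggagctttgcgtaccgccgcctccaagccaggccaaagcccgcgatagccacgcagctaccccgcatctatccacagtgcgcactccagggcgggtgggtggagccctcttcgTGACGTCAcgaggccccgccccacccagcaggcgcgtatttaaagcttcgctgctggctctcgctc
The element lies 66 bases before the start and was present in 5 of the 67 member windows (Cdkn2b, Cenpw, Mcm5, Plk2 and Plk4; 7.46%) and in 1.59% of all windows. Of these 5, Plk2 was the only differentially expressed member.

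Plk1, the mitotic Polo-like kinase, was far less abundant than Plk2 and averaged 0.319 ± 0.0668 and 0.282 ± 0.0785 FPKM (log2 fold change -0.15, SE 0.16, adjusted p = 0.506). Aurkb, the kinase of the chromosomal passenger complex, averaged 0.201 ± 0.0783 and 0.307 ± 0.0978 FPKM on 47 and 72 fragments per group (log2 fold change 0.44, SE 0.20, adjusted p = 0.0931). Bub1, a checkpoint kinase, averaged 0.576 ± 0.0802 and 0.393 ± 0.0504 FPKM and was lower in 6 of 6 pairs, with a ratio of 0.682 (log2 fold change -0.45, SE 0.12, adjusted p = 0.00715), and was called lower without Ad-GFP sample 25 (-0.51) or Ad-h-NR4A2 sample 24 (-0.48) or 29 (-0.48). Bub3, a checkpoint protein whose level was not low in these cells, averaged 41.7 ± 1.88 and 46.9 ± 0.818 FPKM (log2 fold change 0.17, SE 0.04, adjusted p = 0.00233). Summed over Mki67, Top2a, Ccna2, Ccnb1, Ccnb2, Cdk1, Aurkb, Plk1, Bub1b and Cdc20, the level was 1.87 to 2.55 FPKM in Ad-GFP samples and 2.07 to 3.07 FPKM in Ad-h-NR4A2 samples, and these ranges overlapped.

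Under the centromere symbols, 2 of 9 genes tested were differentially expressed, and neither encodes a constitutive centromere protein. Cenpj encodes CPAP, a protein of centrioles and not of the centromere, and lies at chr15:40599733-40658983 of Rn5. It had 5.01, 5.44 and 6.29 FPKM as lowest, median and highest values in Ad-GFP samples and 3.01, 3.47 and 3.97 FPKM in Ad-h-NR4A2 samples. Without overlap, Cenpj fell to between 0.542 and 0.671 of control within pairs (log2 fold change -0.66, SE 0.08, adjusted p = 2.44e-05). Cenpf (chr13:112758855-112804965 of Rn5) encodes a large kinetochore protein that is made mainly in G2. It had 0.0180, 0.0384 and 0.0537 FPKM in Ad-GFP samples and 0.0468, 0.0977 and 0.181 FPKM in Ad-h-NR4A2 samples, on 51 and 147 fragments per group. Cenpf rose in 6 of 6 pairs, by 1.02- to 10.0-fold, with a ratio of means of 2.78 (log2 fold change 0.53, SE 0.17, adjusted p = 0.0203). On so few fragments the fitted change depended on the pseudocount, with 1.19 at 0.01 and 0.09 at 1, and under quantile normalization Cenpf was no longer differentially expressed (0.49). Cenpn, which recognises the centromeric histone, averaged 1.65 ± 0.261 and 2.39 ± 0.306 FPKM without overlap and had a ratio of 1.44 (log2 fold change 0.51, SE 0.12, adjusted p = 0.00434).

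By limma, 0 of the 8 genes that match by symbol alone were differentially expressed, and 3 had an unadjusted p below 0.05. They are the transcriptional kinases Cdk8 and Cdk9, the neuronal kinase Cdk5, and Aurkaip1, Ccnb1ip1, Cdkn2aip, Cdkn2aipnl and Mcm3ap. Cdk8 alone had an adjusted p below 0.05 (12.5%, compared with 40.9% of all genes tested). It averaged 6.07 ± 0.105 and 7.93 ± 0.712 FPKM without overlap, with a ratio of 1.31 (log2 fold change 0.38, SE 0.06, adjusted p = 3.98e-04). Ccnb1ip1, known for its role in meiotic recombination, averaged 0.157 ± 0.0418 and 0.237 ± 0.0815 FPKM (log2 fold change 0.37, SE 0.18, adjusted p = 0.114). It was higher in 6 of 6 pairs and was differentially expressed with the sample number as a block (adjusted p = 0.0283) and without Ad-h-NR4A2 sample 25 (log2 fold change 0.46, adjusted p = 0.0499). Without these 8, 9 of 70 members tested (12.9%) were differentially expressed. Besides Cdkn2a, the members listed at 0 in at least 1 sample and therefore not tested were Ccna1, Cenpa, Cenpt, Cenpu, Cenpw and E2f7, and each had means below 1 FPKM in both groups.

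A further 144 cell cycle genes outside the 85 were listed by function, of which 126 were tested. Differential expression was found for 16 (12.7%, against 15.2% of all genes tested), with 12 higher and 4 lower (against 7.94% and 7.24% of all genes). Among 35 genes for mitosis and cytokinesis, 4 rose and 1 fell (14.3% called). Hmmr, a receptor for hyaluronan that also binds spindle microtubules, had 2.81, 4.63 and 8.33 FPKM in Ad-GFP samples and 89.3, 153 and 183 FPKM in Ad-h-NR4A2 samples, 27.7-fold by the means (log2 fold change 4.83, SE 0.26, adjusted p = 1.32e-08). Kif22, a chromokinesin, averaged 0.441 ± 0.146 and 4.25 ± 0.717 FPKM (log2 fold change 3.03, SE 0.17, adjusted p = 2.17e-08). Both changes exceed that of any member, and the groups did not overlap in either gene. Birc5 and Incenp, which encode 2 partners of Aurora B in the chromosomal passenger complex, differed in direction. Birc5 (survivin) averaged 0.533 ± 0.134 and 1.59 ± 0.570 FPKM and was higher in 5 of 6 pairs (log2 fold change 1.34, SE 0.27, adjusted p = 0.00155). Incenp averaged 6.15 ± 1.03 and 2.52 ± 0.374 FPKM and was lower in 6 of 6 pairs (log2 fold change -1.25, SE 0.13, adjusted p = 5.13e-06).

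In the list of replication machinery, 2 of 35 genes tested rose and 0 fell by limma (5.71% called, and 4 were lower at an unadjusted p below 0.05). These were the clamp loader subunits Rfc3 (medians of 8.50 and 13.3 FPKM; log2 fold change 0.64, SE 0.07, adjusted p = 1.28e-05) and Rfc5 (3.20 ± 0.434 and 4.96 ± 0.978 FPKM; log2 fold change 0.61, SE 0.12, adjusted p = 0.00160). Of 11 genes for nucleotide supply, Tyms (thymidylate synthase) measured 12.5 ± 2.41 FPKM in Ad-GFP samples and rose to 18.9 ± 4.33 FPKM (log2 fold change 0.59, SE 0.14, adjusted p = 0.00474). Among 10 transcription factors of the cell cycle, Myc increased from 24.9 ± 4.82 FPKM to 42.0 ± 3.78 FPKM, without overlap (log2 fold change 0.77, SE 0.12, adjusted p = 1.86e-04) and Mybl1 from 2.48 ± 0.254 to 3.79 ± 0.991 FPKM (log2 fold change 0.56, SE 0.15, adjusted p = 0.00803). Several of these genes were close to the fold limit, and without Ad-h-NR4A2 sample 27 neither Rfc5 (log2 fold change 0.51) nor Tyms (0.48) nor Mybl1 (0.45) was differentially expressed. The same held for Rfc5 without Ad-GFP sample 29 (0.55), for Mybl1 without Ad-h-NR4A2 sample 29 (0.52), and for Tyms without Ad-GFP sample 25 (0.56), 26 (0.57) or 28 (0.54). Of 19 ligase genes tested, Cdc27, a subunit of the anaphase-promoting complex, fell from a median of 26.9 FPKM to a median of 18.4 FPKM (log2 fold change -0.59, SE 0.06, adjusted p = 3.25e-06). Its call was lost without Ad-GFP sample 27 (-0.56) or 29 (-0.57) and without Ad-h-NR4A2 sample 24 (-0.57) or 28 (-0.57).

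Because Cdkn1a is a target of p53, 16 other p53 targets were examined. The death receptor gene Fas averaged 2.63 ± 0.520 FPKM in Ad-GFP samples and rose to 13.5 ± 2.72 FPKM (log2 fold change 2.33, SE 0.16, adjusted p = 1.26e-07), Pmaip1 (Noxa) from 1.13 ± 0.608 to 2.13 ± 0.578 FPKM (log2 fold change 1.01, SE 0.34, adjusted p = 0.0290), and Zmat3 from 3.78 ± 0.365 to 6.75 ± 0.771 FPKM (log2 fold change 0.82, SE 0.09, adjusted p = 9.24e-06). Pmaip1 lost its call without Ad-GFP sample 29 (0.92) and without Ad-h-NR4A2 sample 26 (0.94) or 28 (0.91). Tp53inp1, in contrast, fell from 66.2 ± 12.8 to 37.7 ± 8.95 FPKM (log2 fold change -0.82, SE 0.16, adjusted p = 9.38e-04), and Bbc3 (Puma) was called lower as well. In all, 3 of the 16 targets were called higher and 2 lower (31.2%, against 15.2% of all genes tested), and 11 had an adjusted p below 0.05 with no fold limit (68.8%, against 40.9%). The median log2 fold change of the list was -0.15. The list was chosen with earlier results of these data known, so these shares only describe its genes.

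**Figure D5:**
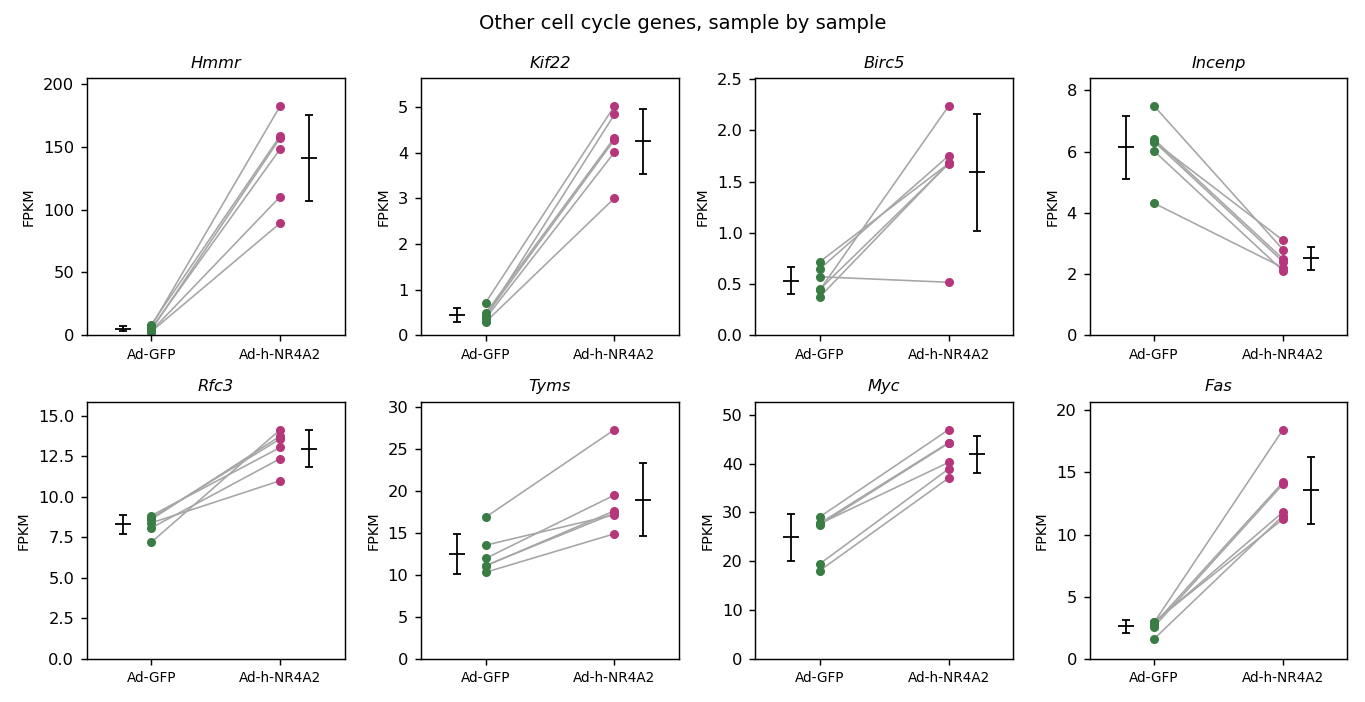
FPKM (vertical axes, from 0) of 8 cell cycle genes outside the 85, in Ad-GFP and Ad-h-NR4A2 samples; points are samples, grey lines join those of the same number, and black marks are the mean ± SD of 6 samples. Hmmr moves from at most 8.33 FPKM to at least 89.3 FPKM, Incenp is the 1 gene of the 8 that is lower, and Birc5 is lower in Ad-h-NR4A2 sample 24 than in its Ad-GFP partner.

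Markers of the myocytes were far above those of other cells in all samples. Summed over 7 cardiomyocyte genes, the level was 17185 to 22200.5 FPKM in Ad-GFP samples and 15424 to 18267 FPKM in Ad-h-NR4A2 samples. Myh7, Ryr2 and Pln were called lower (42.9%, against 15.2% of all genes tested). With no fold limit, 5 of the 7 were lower and 1 higher at an adjusted p below 0.05 by limma. Actn2 went the other way, with 663 to 750 FPKM in Ad-GFP samples and 739 to 862 FPKM in Ad-h-NR4A2 samples. The sum of 9 fibroblast genes was 9.29 to 30.8 and 5.88 to 27.4 FPKM, with Vim the most abundant, Col3a1 called lower (3.64 ± 1.42 and 1.78 ± 0.560 FPKM) and Col1a2 listed at 0 in all samples. Endothelial genes, led by Kdr and Emcn, summed to 6.28 to 22.7 and 5.33 to 21.9 FPKM, and by limma 0 of 6 were differentially expressed and 0 had an unadjusted p below 0.05. Smooth muscle and pericyte genes, led by Acta2, summed to 13.5 to 24.5 and 9.77 to 20.1 FPKM, with Myh11 and Cspg4 called lower. The sum of 5 macrophage genes was 6.15 to 17.4 FPKM in Ad-GFP samples and 39.0 to 45.9 FPKM in Ad-h-NR4A2 samples. Nearly all of it was Csf1r (10.1 ± 3.87 and 40.2 ± 2.35 FPKM), with Cd14 called higher at 0.222 ± 0.150 and 1.19 ± 0.587 FPKM. Cd68 and Adgre1 of the same list did not pass the test, and Ptprc, which marks all leukocytes, was at most 0.0489 FPKM in any sample. Many cell cycle genes have levels at or below those of these markers, and the part of other cells in the results was not tested.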

How the data were processed

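The authors sequenced RNA of 12 ARVM samples (6 per group) as stranded, paired-end mRNA libraries in a single pool. The authors aligned reads to rat Rn5 with STAR and calculated FPKM per RefSeq transcript with Cufflinks. As deposited, these FPKM cover 18752 transcripts, and the fold and q filters of the authors' own comparison are not applied in them. Confidence limits equal the FPKM in 225016 of 225024 values and were not used.

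The groups and the numbers 24 to 29 come from the sample titles. The 85 members have 89 transcript rows, and a gene with several transcripts was represented by the one with the highest mean FPKM. Genes above 0 in all samples were fitted with limma 3.58.1 (R 4.3.3; lmFit, and eBayes with trend) on log2(FPKM + 0.1), two-sided and unpaired, with Benjamini-Hochberg adjustment over all 10950 genes. The authors' own test of these data was that of the Cufflinks workflow, which was not repeated. Fold limits were applied to ratios of mean FPKM, except under quantile normalization, where they were applied to the fitted change. The procedure was tested on simulated data with independent samples, so that test does not cover the correlation between samples of the same number. Single members were also compared by an exact permutation test over 924 splits that ignore the pairs. Python 3.11.15, pandas 2.3.3, NumPy 2.4.6 and Matplotlib 3.10.9 were used.

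Depth was recovered from transcripts of at least 800 nucleotides, where 99.2% to 99.9% of values of up to 6 fragments were whole within 0.05. Fragment numbers are given for genes with 1 transcript and cover counting error only.

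Samples of the same number deviated together from their group means (correlation 0.347 to 0.623, at most 0.189 for different numbers), so the numbers were taken to pair the samples, and the fit with the number as a block is an alternative. The comparison was also repeated on the TPM scale, after quantile normalization, with summed transcripts, without the trend, with a pseudocount of 0.01 or 1, without the filter, with a minimum mean of 1 FPKM, with no fold limit or a limit of 2, and with each sample left out in turn.

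The rule for named genes covers all differentially expressed members and 26 members named by symbol. It also covers up to 4 differentially expressed genes with the largest changes per list, and the 3 most abundant markers of each other cell type. Not all of these markers are named above, and further genes and markers were picked after their values were seen. The members, lists and named genes were chosen with earlier results of these data known. Promoter sequences are those of RefSeq, build GRCr8, whereas gene positions are those of Rn5 as deposited.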

Additional observations from a re-analysis of the deposited data

Results flagged for a closer look

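Of 112 groups of 6 samples examined, 12 held a sample set apart from the others by Dixon's test (its gap to the nearest other sample, as a share of the group's range, exceeded the 95% critical value), and chance alone gives about 1 in 20. Among the members, Mcm2 in Ad-h-NR4A2 sample 27 was high (11.2 FPKM against a group median of 8.69; gap 0.636 of the range), as was Cdk2 in the same sample (10.4 against 7.86; 0.690). Ccnb1 was high in Ad-h-NR4A2 sample 25 (0.271 against 0.152; 0.628). Mki67 was low in Ad-h-NR4A2 sample 29 (0.0404 against 0.0739; 0.666), and Rbl2 was low in Ad-GFP sample 29 (6.20 against 7.41; 0.646).

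Outside the members, Rfc5 (6.91 against 4.72; 0.792) and Tyms (27.3 against 17.5; 0.628) were also high in Ad-h-NR4A2 sample 27, which makes 4 replication or G1 genes set apart in that sample. Birc5 was low in Ad-h-NR4A2 sample 24 (0.516 against 1.68; 0.672), Mybl1 was high in Ad-GFP sample 28 (2.97 against 2.38; 0.660), and Fas was low in Ad-GFP sample 26 (1.61 against 2.84; 0.711). The smooth muscle marker Acta2 was high in both samples numbered 24, at 12.7 FPKM against 3.10 with Ad-GFP (0.714) and at 11.0 FPKM against 2.96 with Ad-h-NR4A2 (0.647).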

How the results depend on the processing

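With no fold limit, the members called numbered 15 higher and 10 lower in place of 5 and 4, and the other cell cycle genes 26 higher and 16 lower in place of 12 and 4. With a fold limit of 2, these counts were 3 and 2 members and 4 and 1 other genes. Leaving out single samples gave 5 to 7 members higher and 3 to 6 lower, and 9 to 14 other genes higher and 4 to 6 lower. The other alternatives gave 4 to 6 and 3 to 5 members and 11 to 13 and 4 to 6 other genes. With the replicate block, 6 members were called higher and 4 lower, and 13 and 5 other genes. Among the members, the block changed the call of Ccnb1ip1 alone. With the block and no fold limit, 9 further members had an adjusted p below 0.05, Mcm3, Rb1, Cdkn1b and Cdkn2c among them. Of 912 values of the 44 genes followed one by one, 894 kept direction and call, 17 lost the call, 1 gained it (Ccnb1) and 0 reversed. Over all members tested and apart from changes of the fold limit, 3 lost a call under at least 1 alternative (Cdkn1a, Cenpf, and Asf1b, which like Cenpf was not tested where a mean of at least 1 FPKM was required). In the same alternatives, 7 members gained a call, namely Mcm3, Mcm8, Bub1, Cdc25b and Ccnb1 without single samples, Ccnb1ip1 without a sample and with the block, and Cenpu (lower) with no filter on low values. Values of members below 1 FPKM are limited by depth. The causes of these changes were not tested.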
